A study of Mus musculus with 12 samples.

Results

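The genes described here are 8 liver-enriched transcription factors: the nuclear receptor gene Hnf4a, the forkhead genes Foxa1, Foxa2 and Foxa3, the homeobox genes Hhex and Prox1, and the leucine zipper genes Cebpa and Cebpb. They were picked by name, with earlier results of these data known. All 8 were found among the 18193 genes of the array table, through 14 probe sets. A gene with several probe sets was read from the one whose level, averaged over the 12 arrays, was highest. The arrays came from 9A1 and 14B3, separately isolated BMEL (bipotential mouse embryonic liver) lines, derived per the labels from embryonic liver at day 14 post coitum of a CBA/J x C57Bl/6J cross. BMEL cells are progenitors that can take on hepatocyte or bile duct features in culture. Each line was sampled in basal culture, after 1 day and after 5 days in aggregate culture, and the 6 combinations each had 2 biological replicates. No treatment other than the culture is named, and each line is 1 isolate, so the lines do not sample embryos. Values are log2 levels from RMA, a method that puts all arrays on a common scale. Unless stated otherwise a difference is in log2 units, ± the standard error from limma, and is a mean over both lines with 4 arrays in each culture. Adjusted p-values were taken over all 15781 genes tested.

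FOXA proteins bind packed chromatin and open it for other factors, and in the embryo they give foregut endoderm the competence to form liver. HNF4A, C/EBP-alpha and their partners then bind the enhancers of genes for plasma proteins and metabolism, and they also bind each other's genes, so that the factors form a network. HHEX is needed for the liver bud to grow out, and PROX1 for hepatoblasts to migrate from it. Several of these factors, HNF4A and FOXA among them, are also made in gut epithelium. In the RefSeq annotation of GRCm38.p6 Hnf4a spans chr2:163506811-163572907, Foxa1 chr12:57540628-57548029, Foxa2 chr2:148042877-148046969 and Foxa3 chr7:19013283-19023539. Hhex spans chr19:37434841-37440731, Prox1 chr1:190118035-190170827, Cebpa chr7:35119293-35121928 and Cebpb chr2:167688915-167690432.

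The stretches shown hold a searched motif before a listed start of Hnf4a, Foxa1 and Foxa2, the only members with a match in any window. Of these Hnf4a was higher and Foxa1 and Foxa2 were lower at day 5 than in basal culture. Cebpa, which rose by more than Hnf4a (1.43 against 0.94), had no match. All stretches are from RefSeq on GRCm38.p6. Capitals mark the matches, each stretch reads 5' to 3' on the gene's strand, and bases after the listed start are left out. For the upstream Hnf4a start the stretch ends where the annotated gene begins, some bases short of the listed start from which the distance of its match is counted. Hnf4a has a start far upstream (chr2:163506607-163506810, plus strand) and a downstream start (chr2:163546905-163547154, plus strand), and the probe sets were not used to tell them apart. Foxa2 is on the minus strand (chr2:148046970-148047219). For Foxa1, also on the minus strand, the match and its flanks are shown (chr12:57546235-57546263). They lie inside the annotated gene, before an inner start.
Hnf4a upstream start: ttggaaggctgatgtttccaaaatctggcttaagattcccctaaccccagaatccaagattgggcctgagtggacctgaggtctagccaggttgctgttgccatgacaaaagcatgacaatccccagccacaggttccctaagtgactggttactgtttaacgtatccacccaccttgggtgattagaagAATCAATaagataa
Hnf4a downstream start: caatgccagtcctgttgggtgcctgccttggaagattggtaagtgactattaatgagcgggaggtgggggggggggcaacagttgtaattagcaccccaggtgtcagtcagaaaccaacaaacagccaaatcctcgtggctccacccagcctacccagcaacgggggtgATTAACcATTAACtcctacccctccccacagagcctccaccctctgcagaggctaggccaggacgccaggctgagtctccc
Foxa2: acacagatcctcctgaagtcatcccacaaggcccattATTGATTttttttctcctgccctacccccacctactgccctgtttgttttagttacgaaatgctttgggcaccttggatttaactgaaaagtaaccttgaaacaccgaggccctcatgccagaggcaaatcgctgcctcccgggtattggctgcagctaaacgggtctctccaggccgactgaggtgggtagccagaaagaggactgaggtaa
Foxa1: tatactgctttGTAAACAaagtgagggcc

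All 8 genes matched promoter entries, 12 windows of 300 bases in all, of which 250 bases lie before the start. Motifs were searched on both strands, and no match overlapped another. The forkhead letters TGTTTAC stood in the Foxa1 window, 141 bases before its inner start, and in 3.65% of all 32851 windows. The HNF1 core GTTAAT occurred side by side at 81 and 74 bases before the downstream Hnf4a start and again in a window of an inner Foxa2 start, against 7.1% of all windows. The ONECUT letters ATTGATT lay 60 bases before the upstream Hnf4a start and 213 before the Foxa2 start shown (2.86% of all windows). The HNF4 letters TGNACTTTG were in 0 of the 12 windows and in 1.41% of all. The C/EBP letters TTGCNNAA were likewise in 0 of 12 and in 10.8% of all. For GATA the letters AGATAAG were in 0 of 12 and in 3.04% of all. A match is a description of these windows and not a binding site.

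Array medians lay between 6.09 and 6.24, and with so few arrays the precision of each level is limited by their number. Day 1 9A1 replicate 2 had the highest median and the lowest SD over probe sets. That SD was 2.13, beside 2.25 to 2.33 on the other arrays. Basal 9A1 replicate 1 stood apart: its mean over 9 hepatocyte markers was 10.15, where the rest of the basal arrays had 6.80 to 7.16, with 8.45 to 9.23 at day 1 and 10.51 to 11.51 at day 5. The replicates of 9A1 differed far more than those of 14B3, with an SD of the pair difference over all genes of 0.896 in basal culture and 0.779 at day 1 against 0.253 and 0.300, and of 0.405 against 0.196 at day 5. Markers of the labelled cell type were uneven. Of the hepatoblast markers Afp lay at 8.97 or more on all 12 arrays, and Cdh1 at 11.45 to 12.30. Krt8 and Krt18 lay at 14.01 to 14.23 and 12.44 to 13.97. Igf2, Dlk1 and Gpc3 lay at 6.74 to 9.27, 5.55 to 7.08 and 5.77 to 6.68. Of the biliary markers Krt19 lay at 13.56 or more and Krt7 at 9.61 to 12.70. Epcam ran from 6.86 to 13.24, Cftr from 4.44 to 10.17, Aqp1 from 6.04 to 10.91 and Sox9 from 6.30 to 9.24. The mature hepatocyte gene Cyp2e1 stayed under 5 except on day 1 9A1 replicate 2 (6.18), the array with the lowest SD. The part of that array's scale in this level was not tested. All 8 intestinal markers were above 5 on every array, with Cdx2 at 9.92 to 11.20, and their mean was 8.42 to 10.72 in basal culture, 9.90 to 10.49 at day 1 and 11.17 to 11.52 at day 5. Means over 7 blood cell, 7 endothelial and 7 stellate and fibroblast markers ran from 5.60 to 6.31, 5.27 to 5.72 and 5.44 to 6.00, with 3 to 5, 2 to 5 and 5 of the 7 genes at or above 5, and the leukocyte gene Ptprc was under 5 on all 12 arrays. The macrophage markers Csf1r and Cd68 were not low: Csf1r lay at 7.65 to 9.17 in basal culture, 9.72 to 10.15 at day 1, 11.99 and 12.02 in day 5 9A1 and 9.53 and 9.84 in day 5 14B3, and Cd68 at 5.85 to 8.13. Of 4 blood cell markers tested 1 rose at day 1, and at day 5 1 rose and 1 fell, where 14.0% and 35.4% of all genes tested were called. In these bulk samples fewer cells of a type and less RNA per cell cannot be told apart, and the part of the intestinal, biliary and macrophage markers in the results was not tested.

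**Figure D1:**
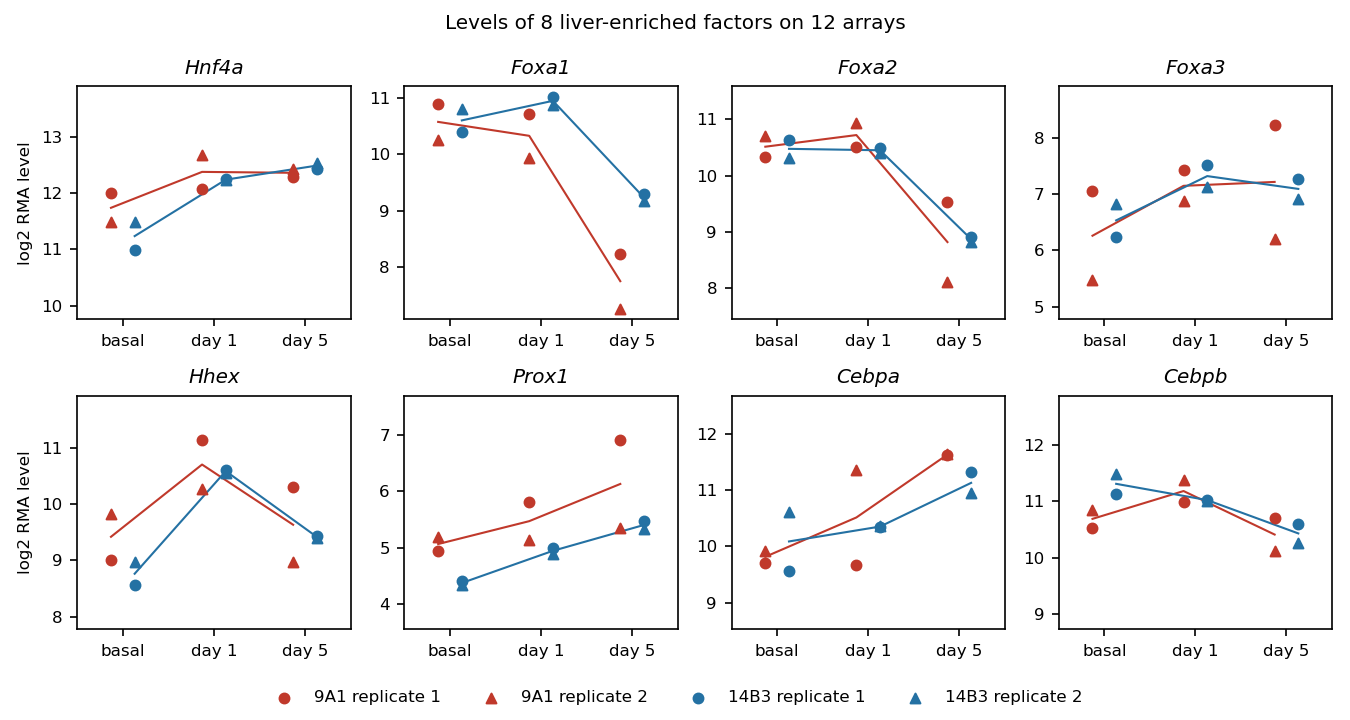
Log2 RMA level (vertical axis) of each of the 8 genes in basal culture, day 1 and day 5 (horizontal axis). Points are single arrays, circles replicate 1 and triangles replicate 2, with 9A1 in red and 14B3 in blue; lines join the means of the 2 arrays, and every panel spans the same number of log2 units. Foxa1 and Foxa2 lie lowest at day 5, Hhex is highest at day 1, and Hnf4a is higher at day 1 and day 5 than in basal culture.

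Hnf4a encodes the nuclear receptor at the centre of the hepatocyte network. In 9A1 it read 11.99 and 11.48 in basal culture, 12.07 and 12.67 at day 1 and 12.29 and 12.43 at day 5. The 14B3 arrays gave 10.98 and 11.48, then 12.24 and 12.23, then 12.43 and 12.54. Every aggregate array was above every basal array. Hnf4a rose by 0.82 ± 0.17 at day 1 (1.76-fold, adjusted p = 0.0149) and was higher by 0.94 ± 0.17 at day 5 (1.91-fold, adjusted p = 0.00278), whereas from day 1 to day 5 the difference was 0.12 ± 0.17 (95% interval -0.27 to 0.51). The 5 day call held with any 1 array left out. The 1 day call was missed without basal 14B3 replicate 1 (0.69, adjusted p = 0.0710), without day 1 14B3 replicate 1 or 2 (0.82 each, adjusted p = 0.0584 and 0.0639) and with array weights (adjusted p = 0.0644).

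The chosen Hnf4a probe set was the brightest of 4, and all 4 moved in the same direction. At day 5 the differences were 0.75, 0.94, 0.98 and 1.06, each with an adjusted p under the threshold of 0.05 when all probe sets were fitted on their own. At day 1 they ran from 0.61 to 0.82, and 3 of 4 passed. The exception, with a difference of 0.61, had an adjusted p of 0.0982. By group mean the order from high to low was day 5 14B3 (12.48), day 1 9A1 (12.37), day 5 9A1 (12.36), day 1 14B3 (12.23), basal 9A1 (11.73) and basal 14B3 (11.23). The gaps under the first and the second of these were smaller than the replicate SD of a neighbour.

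**Figure D2:**
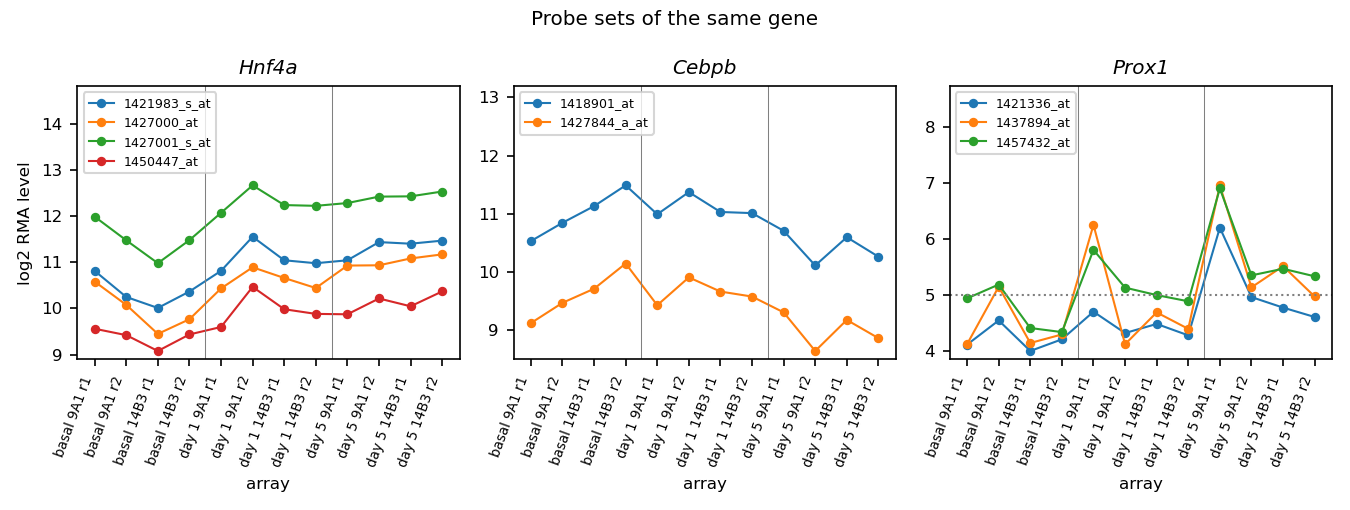
Log2 RMA level (vertical axis) of every probe set annotated to Hnf4a, Cebpb and Prox1 on each of the 12 arrays (horizontal axis); grey vertical lines part basal, day 1 and day 5, and lines join points of 1 probe set. The 4 Hnf4a probe sets run in parallel, and all 3 of Prox1 peak on day 5 9A1 replicate 1; the dotted line marks the floor of 5.

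Foxa1 and Foxa2, the forkhead factors that act first in liver specification, had no call at day 1 and were lower at day 5. Foxa1 in 9A1 read 10.90 and 10.25 in basal culture, 10.72 and 9.94 at day 1 and 8.24 and 7.26 at day 5. In 14B3 it read 10.40 and 10.80, then 11.02 and 10.87, then 9.29 and 9.17. All 4 arrays at day 5 were below all 8 others. Foxa1 fell by 2.10 ± 0.26 from basal culture to day 5 (4.28-fold, adjusted p = 0.000439) and fell by 2.15 ± 0.26 from day 1 to day 5 (4.43-fold, adjusted p = 0.000943), and both calls held with any 1 array left out. The difference from basal culture at day 1 was 0.05 ± 0.26 (95% interval -0.55 to 0.65).

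Foxa1 was called as lower in each line. It fell by 2.83 ± 0.37 in 9A1 (7.1-fold, adjusted p = 0.00188) and fell by 1.37 ± 0.37 in 14B3 (2.59-fold, adjusted p = 0.0255). At day 5 the 9A1 arrays were both below the 14B3 arrays, by 1.48 ± 0.37 on the mean. Neither that difference (adjusted p = 0.322) nor the difference between the responses (-1.46, 95% interval -2.65 to -0.26, unadjusted p = 0.0222, adjusted p = 1) passed over all genes. By group mean the order was day 1 14B3 (10.95), basal 14B3 (10.60), basal 9A1 (10.57), day 1 9A1 (10.33), day 5 14B3 (9.23) and day 5 9A1 (7.75), and the 3 middle groups did not differ beyond their replicate SDs.

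Foxa2 was lower at day 5 as well. Its 9A1 levels were 10.33 and 10.70 in basal culture, 10.51 and 10.94 at day 1 and 9.54 and 8.11 at day 5. In 14B3 they were 10.64 and 10.31, 10.50 and 10.41, and 8.92 and 8.83. The day 5 arrays again lay below all others, although the 9A1 replicates were 1.43 apart. Foxa2 fell by 1.65 ± 0.28 against basal culture (3.13-fold, adjusted p = 0.00186) and by 1.74 ± 0.28 against day 1 (3.34-fold, adjusted p = 0.00306), with both calls kept when any 1 array was left out. The falls from basal culture in the lines were 1.69 ± 0.40 in 9A1 and 1.60 ± 0.40 in 14B3 (interaction -0.09, 95% interval -1.35 to 1.18). The 9A1 difference was -0.98 without day 5 9A1 replicate 2 and -2.41 without replicate 1. The first 4 groups in its order, day 1 9A1 (10.72), basal 9A1 (10.52), basal 14B3 (10.48) and day 1 14B3 (10.45), had gaps within the replicate SD, as had day 5 14B3 (8.87) and day 5 9A1 (8.82).

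Foxa3, the remaining forkhead gene of the family and, like the others, active in liver, had no call in any comparison of cultures. The 9A1 arrays read 7.05 and 5.47, 7.42 and 6.87, and 8.23 and 6.21 in basal culture, at day 1 and at day 5, and the 14B3 arrays 6.24 and 6.83, 7.52 and 7.12, and 7.27 and 6.91. Cultures overlapped, and the replicates of 9A1 were 1.58 apart in basal culture and 2.02 at day 5. The differences from basal culture were 0.84 ± 0.47 at day 1 (95% interval -0.22 to 1.89, adjusted p = 0.311) and 0.76 ± 0.47 at day 5 (-0.30 to 1.81, adjusted p = 0.271). The day 1 difference was 0.44 without basal 9A1 replicate 2 and 1.23 without replicate 1. Without day 5 9A1 replicate 2 the day 5 difference was 1.26 (adjusted p = 0.0441), and without replicate 1 it was 0.25. Day 1 14B3 (7.32), day 5 9A1 (7.22), day 1 9A1 (7.15) and day 5 14B3 (7.09) had gaps within the replicate SD, as had basal 14B3 (6.53) and basal 9A1 (6.26). The difference in response between the 3 FOXA genes was not tested.

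Hhex, the homeobox gene of the liver bud, was highest at day 1. In 9A1 it stood at 9.01 and 9.83 in basal culture, at 11.14 and 10.27 at day 1 and at 10.30 and 8.96 at day 5. The 14B3 values were 8.57 and 8.96, 10.61 and 10.56, and 9.43 and 9.40. No basal array reached any day 1 array, while day 5 9A1 replicate 1 fell among the day 1 arrays. Hhex rose by 1.55 ± 0.32 at day 1 (2.93-fold, adjusted p = 0.0138) and fell by 1.12 ± 0.32 from day 1 to day 5 (2.17-fold, adjusted p = 0.0361). At day 5 it was 0.43 ± 0.32 from its basal level (95% interval -0.29 to 1.16, adjusted p = 0.374), with 0.10 when day 5 9A1 replicate 1 was left out and 0.77 when replicate 2 was.

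Both Hhex calls rested on few arrays. The rise was missed without basal 14B3 replicate 1 (1.45, adjusted p = 0.0681), without day 1 14B3 replicate 1 or 2 (1.54 and 1.57, adjusted p = 0.0557 and 0.0596) and with array weights (adjusted p = 0.0536). The fall passed with 4 of the 12 arrays left out in turn, namely either basal 9A1 array, day 1 9A1 replicate 2 or day 5 9A1 replicate 1. Without the others it ran from -1.13 to -0.78, the latter without day 5 9A1 replicate 2 (adjusted p = 0.114), and it was missed with array weights (adjusted p = 0.0629) and median centring (-1.07, adjusted p = 0.0527). The day 1 groups led the order, with means of 10.70 in 9A1 and 10.59 in 14B3, followed by day 5 9A1 (9.63), basal 9A1 (9.42), day 5 14B3 (9.42) and basal 14B3 (8.76), and of these only the gaps under day 1 14B3 and day 5 14B3 exceeded the replicate SDs.

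Prox1, which hepatoblasts need to leave the liver bud, was close to the floor of 5 set for testing and reached it on 7 of 12 arrays. It lay at 4.94 and 5.19, 5.81 and 5.13, and 6.91 and 5.35 in 9A1, and at 4.41 and 4.34, 5.00 and 4.89, and 5.47 and 5.34 in 14B3. The lowest day 5 array was above the highest basal array by a small margin, and day 5 9A1 replicate 1 was above all others. The day 5 difference was 1.05 ± 0.30 (2.07-fold, adjusted p = 0.0222), and background limits its size since 3 of 4 basal arrays lay under 5. It was 0.66 without day 5 9A1 replicate 1 and 1.44 without replicate 2. The call was missed without any 1 of the basal or day 5 14B3 arrays (adjusted p from 0.0550 to 0.0688). Of its other probe sets 1 gave 0.92 (adjusted p = 0.0183) but reached 5 on 1 array, and the other gave 1.22 (adjusted p = 0.114) and reached 5 on 5 arrays. The group means ran from 6.13 in day 5 9A1 to 4.37 in basal 14B3, and the gaps among the first 3 groups (day 1 9A1 at 5.47 and day 5 14B3 at 5.40 came next) and between basal 9A1 (5.06) and day 1 14B3 (4.94) were within the replicate SD.

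Cebpa and Cebpb encode related factors with a shared DNA binding domain, the former tied to mature, non-dividing hepatocytes and the latter to acute phase and growth responses. Cebpa in 9A1 read 9.70 and 9.92 in basal culture, 9.67 and 11.35 at day 1 and 11.62 and 11.63 at day 5. The 14B3 arrays gave 9.56 and 10.61, 10.34 and 10.36, and 11.31 and 10.94. All day 5 arrays exceeded all basal arrays, whereas at day 1 the 9A1 replicates fell at opposite ends of the range. Cebpa rose by 1.43 ± 0.35 at day 5 against basal culture (2.69-fold, adjusted p = 0.0111), a call that held with any 1 array left out. The day 1 difference was 0.48 ± 0.35 (adjusted p = 0.461), and it was 0.90 (adjusted p = 0.0281) without day 1 9A1 replicate 1 and 0.06 without replicate 2. From day 1 to day 5 it was 0.95 ± 0.35 (adjusted p = 0.0886), and 1.37 (adjusted p = 0.00653) without day 1 9A1 replicate 2. By group mean Cebpa was highest in day 5 9A1 (11.63) and day 5 14B3 (11.12). The gaps from day 5 14B3 down through day 1 9A1 (10.51), day 1 14B3 (10.35), basal 14B3 (10.09) to basal 9A1 (9.81) were within the replicate SD of a neighbour.

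Cebpb read 10.53 and 10.85, 10.99 and 11.37, and 10.71 and 10.11 in 9A1, and 11.13 and 11.49, 11.03 and 11.01, and 10.60 and 10.26 in 14B3. Every day 5 array was below every day 1 array, while basal 9A1 replicate 1 lay among the day 5 arrays. Cebpb fell by 0.58 ± 0.18 from basal culture to day 5 (1.49-fold, adjusted p = 0.0290) and by 0.68 ± 0.18 from day 1 to day 5 (1.6-fold, adjusted p = 0.0232). Its other probe set gave -0.62 (adjusted p = 0.0493) and -0.65 (adjusted p = 0.0594). The fall from basal culture was missed without any 1 of 6 arrays (basal 9A1 replicate 2, basal 14B3 replicate 2, day 1 14B3 replicate 1 or 2, day 5 9A1 replicate 2 and day 5 14B3 replicate 2) and ran there from -0.58 to -0.43, with an adjusted p up to 0.113. The fall from day 1 was missed without day 1 14B3 replicate 1 or 2, day 5 9A1 replicate 2 or day 5 14B3 replicate 2 (-0.69 to -0.53, adjusted p up to 0.0970) and with array weights (adjusted p = 0.0925). Basal 14B3 (11.31), day 1 9A1 (11.18) and day 1 14B3 (11.02) headed the order with gaps within the replicate SD, basal 9A1 (10.69) came next, and day 5 14B3 (10.43) and day 5 9A1 (10.41) were alike within it.

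**Figure D3:**
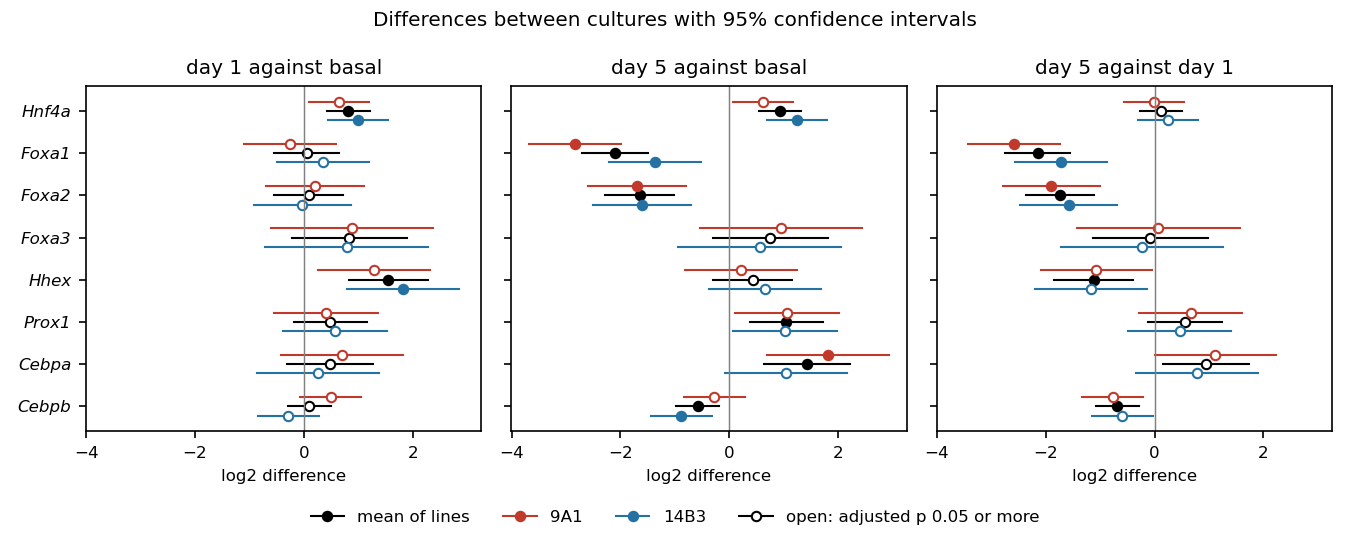
Log2 difference (horizontal axis) of each gene (rows) for the 3 comparisons of cultures, averaged over the lines (black) and in 9A1 (red) and 14B3 (blue), with 95% confidence intervals from limma as bars. Filled points have an adjusted p under 0.05. The falls of Foxa1 and Foxa2 are filled in both lines in the day 5 panels, and no Foxa3 point is filled.

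Counted over the 8 factors, limma called 2 as higher and 0 as lower at day 1 against basal culture. Of all genes tested 14.0% were called in that comparison, 5.25% higher and 8.80% lower, and at an unadjusted p under 0.05 the counts for the factors were also 2 and 0. With quantile normalization 1313 of all genes were higher and 1385 lower, against 829 and 1388. At day 5 against basal culture 3 factors rose (Hnf4a, Prox1 and Cebpa) and 3 fell (Foxa1, Foxa2 and Cebpb), where 35.4% of all genes were called, 16.9% higher and 18.5% lower. From day 1 to day 5, 4 fell (Foxa1, Foxa2, Hhex and Cebpb) and 0 rose, against 21.7% of all genes, 10.0% lower and 11.7% higher. At an unadjusted p under 0.05, 1 factor, Cebpa, was higher in that comparison. The median difference over the 8 was 0.48 at day 1, 0.60 at day 5 and -0.38 from day 1 to day 5, beside 0.03, 0.01 and -0.04 over all genes. Counted by levels alone, the 4 arrays of the cultures did not overlap for 2 factors at day 1 (Hnf4a and Hhex; 14.3% of all genes), for 5 at day 5 (Hnf4a, Foxa1, Foxa2, Prox1 and Cebpa; 38.8%) and for 3 between day 1 and day 5 (Foxa1, Foxa2 and Cebpb; 27.1%). Both comparisons with basal culture use the same basal arrays.

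Without basal 9A1 replicate 1 the counts of called factors were 2, 6 and 4, as with all arrays. Leaving out day 1 9A1 replicate 2 as well gave 2, 6 and 5. The count at day 1 fell to 0 without basal 14B3 replicate 1 or without either day 1 array of that line, and was 3 (Cebpa added) without day 1 9A1 replicate 1. At day 5 it was 4 without replicate 2 of 14B3 from basal culture or from day 5. From day 1 to day 5 it was 2 without day 1 14B3 replicate 1 or 2 or day 5 14B3 replicate 2. With the replicate number as a block the counts were 2, 5 and 2, Cebpb being lost at day 5 and Hhex and Cebpb from day 1 to day 5.

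Within single lines, with 2 arrays against 2, limma made 13 calls among the factors. In 9A1 there were 0 at day 1 (1.88% of all genes called, 2 factors at an unadjusted p under 0.05), 3 at day 5 against basal culture (Foxa1, Foxa2 and Cebpa, 15.2%) and 2 from day 1 to day 5 (Foxa1 and Foxa2, 9.89%). In 14B3 there were 2 at day 1 (Hnf4a and Hhex, 8.57%), 4 at day 5 (Hnf4a, Foxa1, Foxa2 and Cebpb, 26.7%) and 2 from day 1 to day 5 (Foxa1 and Foxa2, 6.91%). Of the 13, 2 passed with any 1 array left out, both of them falls of Foxa1 in 9A1. Cebpa rose by 1.81 ± 0.49 in 9A1 (adjusted p = 0.0381) and differed by 1.04 ± 0.49 in 14B3 (adjusted p = 0.166). Hnf4a differed by 0.62 ± 0.24 in 9A1 (adjusted p = 0.125) and rose by 1.25 ± 0.24 in 14B3 (adjusted p = 0.00632). The differences between these responses, 0.77 (95% interval -0.80 to 2.35) and -0.63 (-1.41 to 0.15), had an adjusted p of 1. With array weights in limma, lower for 9A1 than for 14B3 in each culture, calls changed. In 9A1 Foxa1 kept its call against basal culture. Foxa1 from day 1 to day 5 (adjusted p = 0.0579), both Foxa2 calls (0.0601 and 0.215) and Cebpa (0.0749) were missed. In 14B3 Cebpa (0.00563), Prox1 (0.00345) and Hhex (0.0332) were added at day 5, and Hhex (0.0115) and Cebpb (0.0438) from day 1 to day 5.

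No call separated the lines. Averaged over the cultures limma called 0 of the 8 between 9A1 and 14B3, where 0.272% of all genes were called, and 2 had an unadjusted p under 0.05. These were Foxa1, lower in 9A1 by 0.71 on the log2 scale (95% interval of the difference -1.20 to -0.22, adjusted p = 0.282), and Prox1, higher by 0.65 (0.10 to 1.20, adjusted p = 0.388). For the other 6 the differences lay between -0.16 and 0.33. Within a culture, 0 of 8 were called in basal culture (0.0190% of all genes), at day 1 (0%) and at day 5 (0.247%), with 1, 0 and 1 at an unadjusted p under 0.05. In the tests of the difference in response limma called 0 of 8 at day 1 (0% of all genes), at day 5 (0.0380%) and from day 1 to day 5 (0.0380%), and 0, 1 and 0 had an unadjusted p under 0.05.

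The replicates of day 5 9A1 lay apart in several of these genes. Replicate 2 carries no culture tag in the labels and was placed in its group by its title. Replicate 1 was higher in 6 of 8 factors, and in 7 of 8 in both day 1 14B3 and day 5 14B3. Between the day 5 9A1 arrays 4 factors differed by more than 1 (Foxa2, Foxa3, Hhex and Prox1, by 1.43, 2.02, 1.34 and 1.56). Of all genes tested 3.11% differed that much between these arrays. Between the day 5 14B3 replicates 0 of 8 differed by more than 1, and 0.291% of all genes did. On day 5 9A1 replicate 1 and replicate 2 the hepatocyte marker mean was 11.51 and 10.51, the hepatoblast marker mean 10.70 and 10.10, and Afp 13.69 and 11.73. The part of these levels in the factors' differences was not tested.

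On the basal array with high hepatocyte markers some factors lay outside the range of the other 3 basal arrays and some inside it. The share of all genes outside that range was not counted, so the positions describe single genes. On basal 9A1 replicate 1 Alb, the albumin gene, lay at 13.14, and the other 3 arrays of that culture had 5.57 to 6.86. Hnf4a (11.99), Foxa1 (10.90) and Foxa3 (7.05) were the highest of the 4 basal arrays there, beside 11.48, 10.80 and 6.83 on the next. Foxa2, Hhex, Prox1 and Cebpa were inside the range of the other 3. Cebpb (10.53) was the lowest. Foxa1 and Foxa2 on this array were also above all day 5 arrays (up to 9.29 and 9.54), and Hnf4a, Prox1 and Cebpa were below all of them. Foxa3, Hhex (9.01) and Cebpb lay inside the day 5 range (6.21 to 8.23, 8.96 to 10.30 and 10.11 to 10.71).

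**Figure D4:**
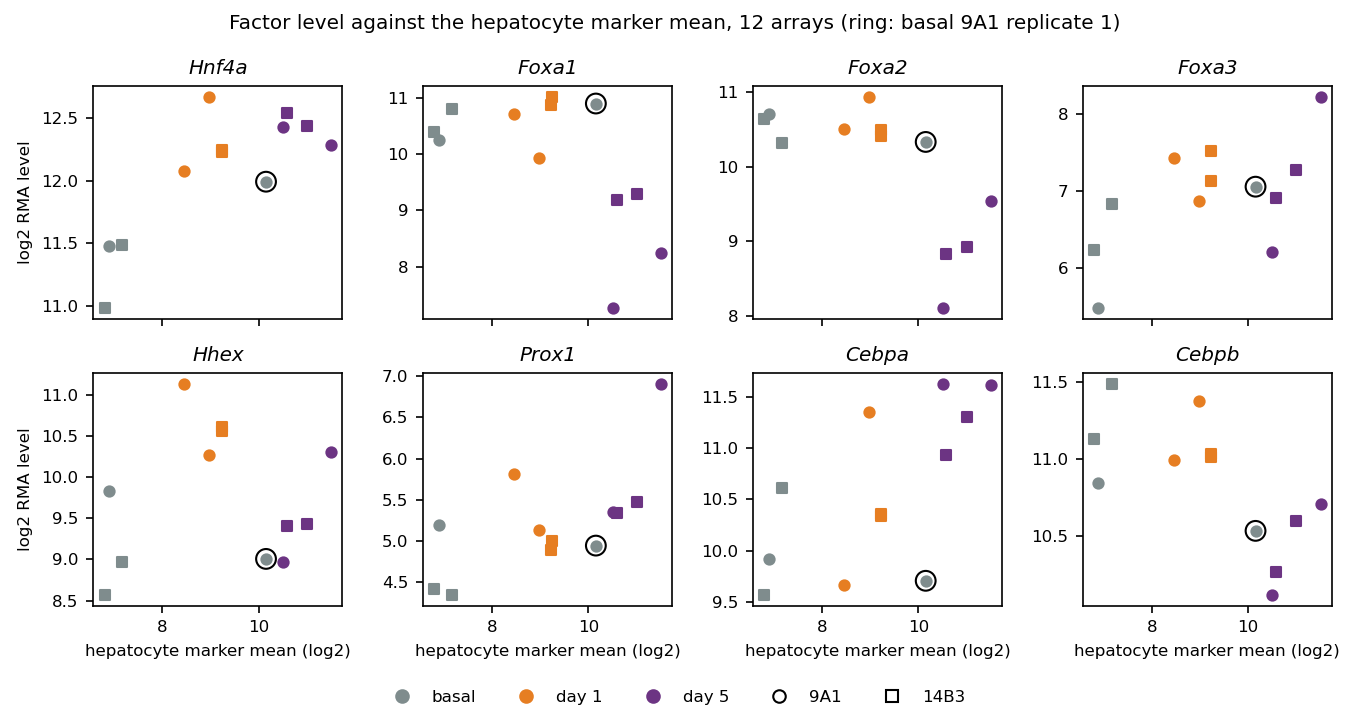
Log2 RMA level of each factor (vertical axis) against the mean log2 level of 9 hepatocyte markers (horizontal axis) on 12 arrays, coloured by culture, with circles for 9A1 and squares for 14B3. The ringed point is basal 9A1 replicate 1, whose marker mean of 10.15 is near the day 5 arrays. Its Hnf4a, Foxa1, Foxa2, Prox1 and Cebpa levels lie outside the range of the day 5 arrays, and its Foxa3, Hhex and Cebpb levels inside it.

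Of 28 partner factors of the liver network 26 were on the array and 25 were tested. At day 1, 1 rose and 2 fell (6 and 3 at an unadjusted p under 0.05), with a median difference of 0.14. Hlx, a homeobox gene of the mesenchyme beside the liver bud, rose by 0.70 ± 0.14, whereas Hmgb2, a chromatin protein of dividing cells, fell by 2.10 ± 0.18 and Cebpg, a partner of C/EBP proteins, by 1.03 ± 0.23. At day 5, 8 rose and 3 fell, with a median of 0.37. Over all genes 5.25% were called higher and 8.80% lower at day 1, and 16.9% and 18.5% at day 5. The largest rise was in Hnf4g, a paralog of Hnf4a that is prominent in gut, by 4.61 ± 0.58 (24.4-fold, adjusted p = 0.000422), with 5.44 when basal 9A1 replicate 1 was dropped and 3.79 when replicate 2 was. Hnf4g lay at 10.36 to 11.18 on the day 5 arrays, at 5.62 to 6.67 at day 1, and in basal culture at 5.02 to 5.35 except on 9A1 replicate 1 (8.65). Ddit3, a C/EBP family member of the stress response, rose by 1.85 ± 0.41, and the circadian factor Dbp by 1.38 ± 0.44. The largest falls were in Hmgb2 (-2.74 ± 0.18), Foxm1, a forkhead factor of the cell cycle (-1.23 ± 0.30), and Hlx (-0.46 ± 0.14). The other 5 that rose included Cebpg, by 0.88 ± 0.23, Rxra, the partner of many nuclear receptors, by 1.04 ± 0.15, and the nuclear receptor gene Nr5a2 by 0.99 ± 0.15, these 3 being named after their values were seen.

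The counts for the partner factors depended on single arrays. Without basal 9A1 replicate 1, 7 rose and 3 fell at day 1 and 11 rose and 3 fell at day 5. Leaving out day 1 9A1 replicate 2 too gave 9 and 4 at day 1 and 13 and 6 at day 5. The shares of all genes given above are from all 12 arrays, so they are no measure for these counts. The number that rose at day 1 was also 0 without basal 14B3 replicate 2, 2 without basal 9A1 replicate 2 or day 1 9A1 replicate 2 and 3 without day 1 9A1 replicate 1. Of those that fell at day 1 there were 5 without day 1 9A1 replicate 1 and 1 when a basal or day 1 array of 14B3 was left out. At day 5, 5 rose without day 5 9A1 replicate 2, and likewise without replicate 1 of basal or of day 5 14B3. Dbp rose by 0.77 when basal 9A1 replicate 2 was dropped and by 1.99 when replicate 1 was, and its call was missed without any 1 of 8 arrays, all of 14B3 in the 3 cultures and both of day 5 9A1 (adjusted p up to 0.127). The day 5 fall of Hlx was missed without 6 arrays, namely basal 9A1 replicate 2, basal 14B3 replicate 1 and the 4 arrays of day 5 (adjusted p up to 0.134). Its day 1 rise was missed without basal 14B3 replicate 2 (0.61, adjusted p = 0.0600), without day 1 14B3 replicate 1 (0.65, adjusted p = 0.0517) and with array weights (adjusted p = 0.0731). The day 1 fall of Cebpg was missed whenever a 14B3 array of either culture was dropped (adjusted p up to 0.0888).

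**Figure D5:**
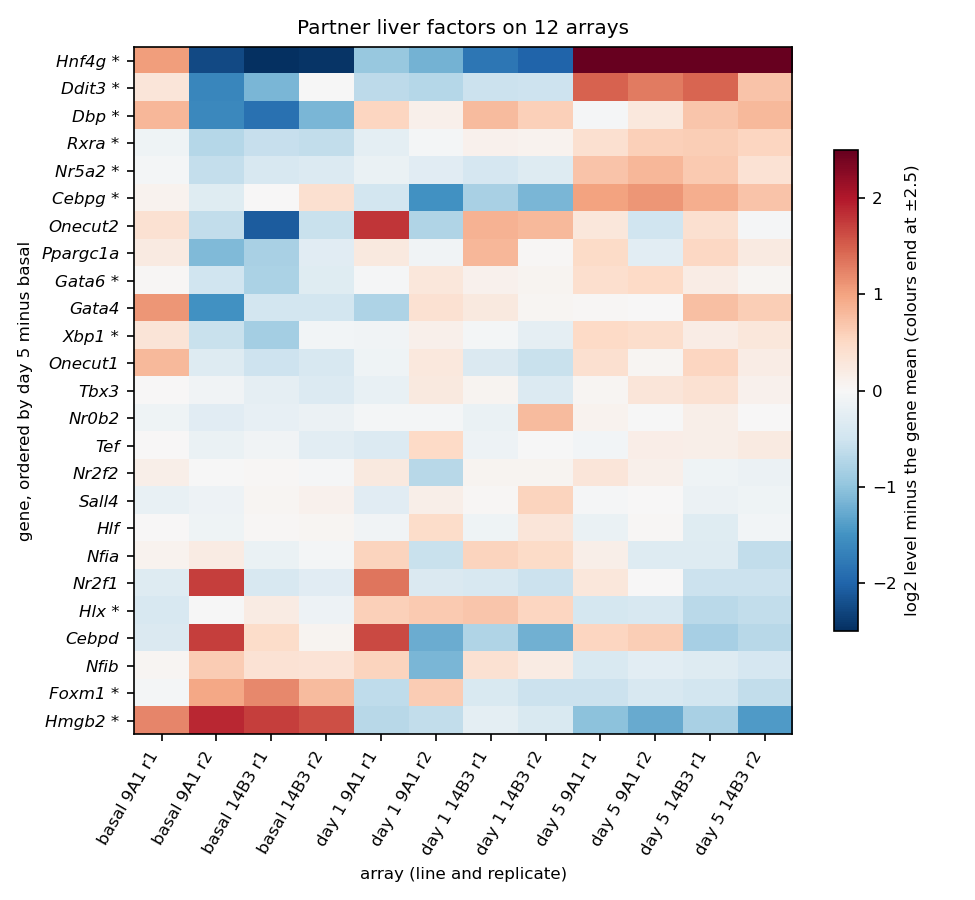
Log2 level minus the gene's mean over 12 arrays (colour, with the scale ending at ±2.5) for the 25 tested partner factors (rows, ordered by the day 5 difference from basal culture) on each array (columns). Asterisks mark an adjusted p under 0.05 at day 5. Hnf4g is the top row, and it is above its mean on basal 9A1 replicate 1 as well as on the day 5 arrays.

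Genes known from textbooks as targets of these factors were counted as well, 45 of them tested out of 51 on the array and 59 listed. At day 1 limma called 4 as higher and 0 as lower (7 and 0 at an unadjusted p under 0.05). At day 5, 25 rose and 0 fell (28 and 0 unadjusted), and the median difference was 1.59 beside 0.01 over all genes. Called higher among all genes were 5.25% at day 1 and 16.9% at day 5, and called lower 8.80% and 18.5%. The largest rises were in genes for lipid and hormone carriers of plasma, Apoc2 by 5.57 ± 1.32 (adjusted p = 0.00954), Ttr by 5.55 ± 1.20 and Apoa4 by 5.54 ± 1.31. When basal 9A1 replicate 1 was dropped these were 7.51, 7.28 and 7.50, and when replicate 2 was dropped 3.63, 3.81 and 3.58. Without replicate 1 the counts that rose were 12 and 29, and 16 and 32 without day 1 9A1 replicate 2 as well. The shares of all genes given here are from all 12 arrays, so they are no measure for counts with arrays left out. Without basal 9A1 replicate 2, 5 fell at day 1 and 1 at day 5, and 1 fell at day 1 without day 1 9A1 replicate 1. The number that rose at day 1 was 0 without basal 14B3 replicate 1 or any 1 of the day 1 or day 5 arrays of 14B3, 1 without basal 14B3 replicate 2, 2 without day 1 9A1 replicate 2 or either day 5 array of 9A1, and 7 without day 1 9A1 replicate 1.

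Chromatin partners had no call at day 1. Of 13 tested coactivators, corepressors and remodelling subunits limma called 0 at day 1, with 0 higher and 1 lower at an unadjusted p under 0.05. At day 5, 1 rose and 5 fell, with a median difference of -0.43. Of all genes 14.0% were called at day 1 and 35.4% at day 5, the latter split into 16.9% higher and 18.5% lower. The median over all genes at day 5 was 0.01. Ncoa1, a nuclear receptor coactivator, rose by 1.27 ± 0.33 (adjusted p = 0.0136), a call missed without basal 14B3 replicate 1 (1.11, adjusted p = 0.0593). Smarcb1, a subunit of the BAF remodelling complex, fell by 1.07 ± 0.16, the histone demethylase gene Kdm1a by 0.97 ± 0.30 and the coactivator gene Ncoa3 by 0.86 ± 0.14. Under the other processing settings the difference ran from -1.23 to -0.58 for Smarcb1 and from -0.94 to -0.58 for Ncoa3, and both calls were kept. Kdm1a passed with 3 of 12 arrays left out in turn, those being basal 9A1 replicate 1 and the day 1 arrays of 9A1, and otherwise had an adjusted p up to 0.110. The number that fell was 8 without day 1 9A1 replicate 1 or 2, and 3 without basal 14B3 replicate 1 or without replicate 2 of either day 5 group. The number that rose was 2 without either day 1 array of 9A1. At day 1, 1 fell without basal 9A1 replicate 1 and 2 without day 1 9A1 replicate 1, and 1 rose without basal 9A1 replicate 1 or day 1 9A1 replicate 2.

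Among all tested genes, those whose levels followed a factor most closely over the 12 arrays were ranked by Pearson's correlation, as a description that is driven by the culture differences the arrays share. For Hnf4a these were Ifngr2 (r = 0.971), Sema4g (0.965) and Os9 (0.965). For Foxa1 they were the adhesion receptor gene Vcam1 (0.971), Ampd2 (0.966) and Elovl7 (0.959), and for Foxa2 Marcksl1 (0.977), Mcrip1 (0.976) and Rabl2 (0.959). Vcam1 had culture means of 11.95, 11.64 and 9.48 in basal culture, at day 1 and at day 5, and Marcksl1 had 10.78, 10.63 and 8.12. For Hhex the genes were Rtn4 (0.981), Zswim8 (0.940) and Zfp579 (0.940), all with their highest culture mean at day 1. Rtn4 ranged only from 12.94 to 13.28 in its culture means. Foxa3 was followed by Tlr2 (0.893), the coactivator gene Ppargc1a (0.880) and Zbtb43 (0.868), Prox1 by Rgs2 (0.930), Slc20a1 (0.929) and Krba1 (0.919), Cebpa by Gm31367 (0.935), Slc24a4 (0.915) and Mapkbp1 (0.911), and Cebpb by Dnaja4 (0.951), Tspyl2 (0.927) and Snd1 (0.923). Between the factors themselves the highest correlations were those of Foxa1 with Foxa2 (0.83) and of Foxa2 with Cebpb (0.82), and the lowest that of Foxa1 with Cebpa (-0.79).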

How the data were processed

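RNA of 12 BMEL cultures was labelled with biotin and hybridised to Affymetrix mouse arrays. The deposited values are log2 levels per probe set, which the authors computed by RMA, with R 2.3.1 named in the submitters' processing notes. RMA is meant to scale all arrays to a common distribution, so a difference in total RNA between cultures is not seen. The deposited arrays were not fully alike: the SD was 2.13 on day 1 9A1 replicate 2 and 2.25 to 2.33 on the others. The table holds no detection calls. Of 45101 probe sets 34945 had 1 gene in the platform annotation, with symbols updated through Entrez identifiers to the RefSeq table of GRCm38.p6. A gene was tested if 2 or more arrays reached a log2 level of 5, which left 15781. In R 4.3.3 limma 3.58.1 fitted a mean for each of the 6 groups to all 12 arrays, with a variance trend, and calls needed a Benjamini-Hochberg adjusted p below 0.05. The script was tested on simulated data. Each p-value is from a limma test of a difference in group means against the spread between replicates within groups. In the main fit that spread was pooled over all 6 groups, also for comparisons within a line, although the lines differed in it. A p-value within a line can therefore be too small for the line whose replicates lay further apart and too large for the other. The rule for naming took all 8 factors, the 3 largest called changes each way per list at day 5 (and at day 1 for partner factors) and the 3 genes most correlated with each factor. The factors and lists were chosen with earlier results of these data known, and some listed genes were not analysed here. Alternatives were no filter, a higher floor (6), averaged probe sets, each probe set of a factor fitted by itself, median centring, quantile normalization, array weights, no variance trend, robust moderation, a replicate block and leaving out arrays. For the lists and their named genes these were added after the data were seen.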

Additional observations from a re-analysis of the deposited data

Results flagged for a closer look

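In 24 sets of 4 arrays (8 factors in 3 cultures) an array was compared with the other 3 by Dixon's criterion, which chance meets in about 1 of 20 sets. Prox1 on day 5 9A1 replicate 1, at 6.91, lay far above the other day 5 arrays (5.34 to 5.47). Cebpb on day 1 9A1 replicate 2, at 11.37, lay above the other day 1 arrays (10.99 to 11.03). That array had the lowest SD over probe sets, and the part of its scale in this level was not tested.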

How the results depend on the processing

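Over the factors, the number called at day 1 was 2 and at day 5 was 6 under most settings, and from day 1 to day 5 it was 4. With array weights 0 factors were called at day 1 and 2 from day 1 to day 5, and with the replicate block 2 were called from day 1 to day 5. Leaving out 1 array gave 0 to 3 at day 1, 4 to 6 at day 5 and 2 to 5 from day 1 to day 5. Counts with arrays left out, for the factors and for the lists, are given without the share of all genes called in the same fit. Between lines and for the difference in response the count was 0 throughout. The cause of these changes was not tested. The falls of Foxa1 and Foxa2 at day 5, averaged over the lines, and the rises of Hnf4a and Cebpa from basal culture to day 5 were called under every setting run. The labels do not say whether replicate numbers pair the samples, and the main fit took no pairing. Deviations of same-numbered arrays correlated at -0.30, -0.19 and 0.38 between cultures of 9A1 and at -0.10, -0.07 and -0.02 in 14B3. With so few arrays these values cannot decide whether samples were paired. With the floor of 6 Prox1 was not tested, which left 5 factors called at day 5. No called difference changed sign.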
